A study of Mus musculus with 4 samples.

Results

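The genes described here encode the proteins of the cytosolic ribosome. They were taken by name from the table of gene expression: 82 of its 45882 genes have a symbol that opens with Rpl or Rps and a number, or is Rplp0, Rplp1, Rplp2 or Rpsa, after processed copies named "-ps" and the Rps6k kinases were left aside. Of the 82, 50 belong by name to the large subunit and 32 to the small subunit. All 82 were in the table, and 80 had a mean of at least 1 FPKM over the libraries. FPKM counts the fragments sequenced from a gene per unit of transcript length and of library size, so levels of different genes can be set side by side.

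RNA was measured in endothelial cells isolated from hearts of male mice with beads against CD31 (Pecam1). The WT saline and WT Dox groups were wild type, and the Smad3 KO saline and Smad3 KO Dox groups lacked Smad3 in every cell, so the loss is not limited to endothelium. Saline or doxorubicin (Dox, 5 mg/kg) went into the tail vein weekly for 4 injections from 7 weeks of age, and hearts were taken at 20 weeks, 9 weeks after the last injection. Where a sentence gives 4 values for a gene or list with no further mark, they stand in the standard order, which is WT saline first, then WT Dox, then Smad3 KO saline and last Smad3 KO Dox. Each group was 1 library, and no difference below has a replicate check, an error or a test. Whether a library pooled animals is not given in the sources used here.

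A ribosome holds 1 copy of nearly every ribosomal protein, and these genes are among the most highly expressed of any dividing or resting cell. Their mRNAs open with a 5′ terminal oligopyrimidine tract, a C followed by a run of C and T, through which the growth kinase mTOR and the binding protein Larp1 control their translation together. Many of the genes carry small nucleolar RNAs (snoRNAs) in their introns and have left numerous processed copies across the mouse genome. Doxorubicin, an anthracycline, also interferes with the making of ribosomal RNA. When ribosome assembly is disturbed, free Rpl5 and Rpl11 bind Mdm2 and stabilize p53.

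The start of the transcript is shown for 9 members that recur below, 30 bases each from 10 before the annotated start to 20 after it, as in RefSeq (GRCm38.p6). Capitals mark each run of a C and at least 4 C or T after it, found within 10 bases of the start on either side and shown to its end.
Rpl13a (chr7:45128726-45128755, minus strand): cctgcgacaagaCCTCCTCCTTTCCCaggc
Rplp0 (chr5:115559457-115559486, plus strand): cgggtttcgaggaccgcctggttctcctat
Rplp2 (chr7:141447641-141447670, plus strand): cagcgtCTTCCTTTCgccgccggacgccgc
Rps6 (chr4:86857348-86857377, minus strand): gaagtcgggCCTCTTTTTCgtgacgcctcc
Rps15a (chr7:118116128-118116157, minus strand): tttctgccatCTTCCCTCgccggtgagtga
Rpl38 (chr11:114668570-114668599, plus strand): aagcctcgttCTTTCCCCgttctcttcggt
Rpl15 (chr14:18270967-18270996, minus strand): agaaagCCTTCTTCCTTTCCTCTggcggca
Rps27 (chr3:90213629-90213658, minus strand): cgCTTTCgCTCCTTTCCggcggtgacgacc
Rpl9 (chr5:65391412-65391441, minus strand): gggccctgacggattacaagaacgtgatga
Rpl9 and Rplp0 have no such run within 10 bases of the start. Of 61 members with a RefSeq start, 34 (55.7%) had the tract at any of their starts, against 28.8% of 27025 genes with a start. In the 300 bases from 250 before to 50 after the start, CCGGAAG, the core of sites for ETS factors, was present on either strand in 41.0% of the members and 9.93% of all genes. CCATNTT, the core of YY1 sites, was present in 34.4% and 18.2%. CACGTG, the E-box of Myc and Usf factors, was present in 9.84% and 8.09%, and TATAAA in 11.5% and 15.7%. The short run CTTTCC, which overlaps the tract and was read only in the direction of the transcript, was present in 41.0% and 16.0%. A match is a description of these letters only.

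Beside the members, the libraries differed in ways that touch every result. Their depth, estimated from the spacing of low values, was 28000000, 26100000, 26000000 and 21300000 fragments. Mitochondrially encoded genes took between 8.95% (Smad3 KO Dox) and 20.1% (Smad3 KO saline) of all FPKM. Smad3 itself stood at 2.95, 2.09, 1.02 and 0.848 FPKM by the sample titles, whereas the genotype tags of the WT Dox and Smad3 KO saline samples each name the other genotype, a doubt that touches all 4 comparisons. All 7 endothelial markers were present, with summed levels of 2032, 1910, 1948 and 1518 FPKM in that order. Of the 7 erythroid markers, the globins led a sum of 4423, 4384, 10289 and 28549 FPKM. The 7 macrophage markers summed to 330, 315, 163 and 79.0 FPKM and the 8 cardiomyocyte markers to 608, 737, 876 and 922 FPKM. RNA of other cells was thus measured with the endothelium, and fewer cells of a type cannot be told apart from less RNA per cell. The part of these other cells in the results below was not tested.

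Ribosomal protein transcripts took between 8.79% and 11.4% of all FPKM. Their summed level was 45841, 55913, 58646 and 64373 FPKM. The WT saline library was the lowest and Smad3 KO Dox the highest. As a share of all FPKM the same sums were 8.99%, 9.65%, 8.79% and 11.4%, and here Smad3 KO saline, not WT saline, was the lowest. With mitochondrially encoded and globin genes taken out of the total, the shares were 10.1%, 11.7%, 11.2% and 13.3%, and WT saline was again the lowest. The large subunit, with 50 members, exceeded the small subunit, with 32, by a ratio of 1.13, 1.17, 1.10 and 1.19 of summed FPKM in the same order. By the median member the small subunit was the higher in every library. Its medians were 578, 749, 709 and 852 FPKM, against 400, 512, 547 and 591 FPKM for the large subunit.

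The members spanned a wide range of levels. The median of their mean FPKM was 578, with 16 members at 1000 or more, 59 between 100 and 1000 and 7 under 100. Rplp1, a protein of the acidic stalk that recruits translation factors, was the highest with a mean of 2319 FPKM, followed by Rps24 (2120), Rps27 (2005), Rps15 (1793), Rps12 (1737), Rps14 (1580), Rpl13a (1536), Rpl23a (1438), Rps26 (1213) and Rps21 (1169). Of these 10, 7 encode proteins of the small subunit. At the other end stood the 7 members under 100 FPKM, Rps27l (84.6), Rpl22l1 (74.5), Rps4l (55.7), Rpl7l1 (19.5), Rpl3l (10.8), Rpl39l (0.420) and Rpl10l (0.0528), each a paralog of another member. Next above them were Rpl39 (172), Rpl37 (231) and Rpl12 (233).

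The libraries differed by less than 2-fold for most members. The ratio of the highest to the lowest library had a median of 1.45 over the 80 members, from 1.08 for Rpl37a to 3.04 for Rpl3l, and was under 2 for 76 of them. The 4 members at 2 or more were Rpl3l (3.04), Rpl13a (2.80), Rps4l (2.40) and Rpl27 (2.20). Without rescaling of the libraries, their order was shared, however. WT saline was the lowest library for 67 of 80 members, against 28.4% of all 12325 genes past the same filter, and Smad3 KO Dox was the highest for 57, against 41.5% of all genes. For 51 members both held, against 20.6% of all genes. Smad3 KO saline was the highest for 18 members, against 14.7%. These 4 libraries and the members' short transcripts are common to all of these counts. The order depended on scaling. With every library set to the same sum of FPKM (TPM), 36 of 80 members were higher in Smad3 KO saline than in WT saline. In WT Dox 58 of 80 were then higher than in WT saline.

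**Figure D1:**
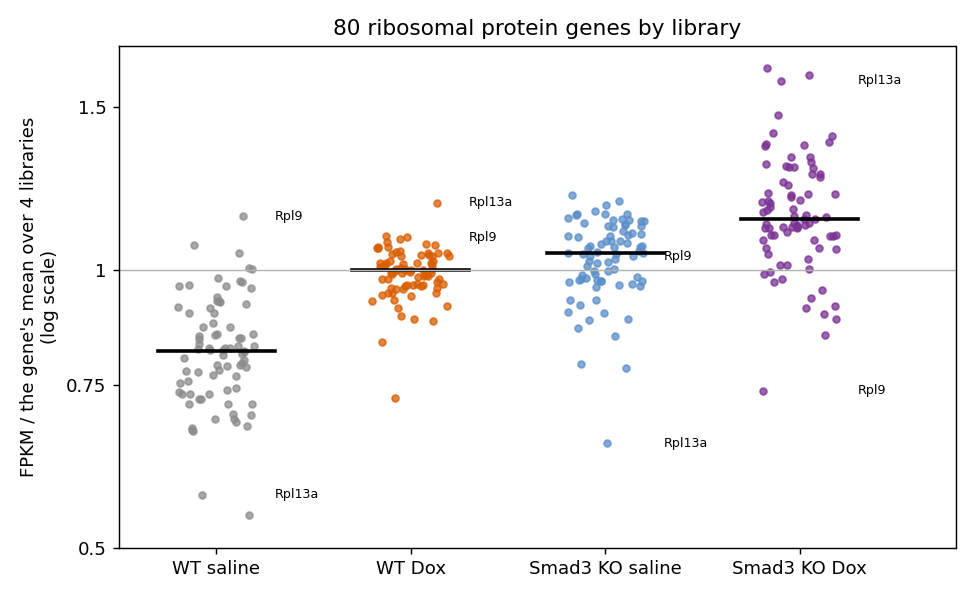
Level of each of 80 ribosomal protein genes in the 4 libraries, as FPKM divided by the gene's own mean over the libraries (log scale). Points are genes, black bars are medians, and Rpl13a and Rpl9 are named. WT saline was the lowest library for 67 genes and Smad3 KO Dox the highest for 57, while Rpl9 ran the other way. The libraries were not rescaled here, and the order depended on scaling.

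The first comparison was of doxorubicin in wild-type hearts. In WT Dox versus WT saline 73 of 80 members were above 0 on the difference of log2(FPKM + 0.5), where 42.8% of all genes were. The median of the members was 0.30, that of all genes -0.06, and the quartiles of the members were 0.17 and 0.39. With every library set to the same sum of FPKM (TPM), 58 of 80 members were above 0. The medians were then 0.11 for the members and -0.24 for all genes. A difference of at least 1, a 2-fold change, is used here as a rule of size. Only Rpl13a passed it (1.05), where 3.72% of all genes passed in either direction, and it fell short under 2 other scalings (0.86 and 0.97). Behind it came Rps15a (0.60), Rpl3l (0.58), Rps23 (0.57) and Rps20 (0.54). Rps15a, a small subunit protein, went from 243 to 368 FPKM, and Rps23, which lines the decoding centre, from 503 to 745 FPKM. Rps20 went from 211 to 308 FPKM.

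Only 7 members were lower in WT Dox, and none by much. The lowest were Rpl22l1 (-0.17), Rps27 (-0.09), Rpl9 (-0.08) and Rpl15 (-0.04). Both subunits were alike in this comparison, with medians of 0.31 for 48 large subunit members and 0.28 for 32 small subunit members. Other genes with transcripts of the members' length, 3096 between 367.5 and 1166.4 bases, had a median of -0.01.

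Loss of Smad3 without doxorubicin gave a similar picture. In Smad3 KO saline versus WT saline, 73 of 80 members were above 0, where 48.3% of all genes were, and the medians were 0.36 for the members and -0.01 for all genes. The count depended on scaling, with 36 of 80 members above 0 when every library was set to the same sum of FPKM (TPM) and 58 when that sum left out mitochondrially encoded and globin genes. With TPM the medians were -0.032 and -0.38, so the members still lay above all genes. No member passed the size rule, where 4.72% of all genes did. The nearest were Rpl3l (0.79), Rps24 (0.75), Rps14 (0.73), Rpl19 (0.71) and Rpl26 (0.65). Rps24, the second highest member, went from 1478 to 2492 FPKM, and Rps14, at the platform of the small subunit, from 1060 to 1761 FPKM. Rpl19 went from 665 to 1088 FPKM. At the other end were Rps29 (-0.28), Rpl9 (-0.14), Rpl41 (-0.13), Rpl22l1 (-0.12) and Rpl38 (-0.08). This comparison shares the WT saline library with the one before it, so a low value of that library enters both.

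Smad3 loss under doxorubicin moved the members less, relative to other genes. In Smad3 KO Dox versus WT Dox, 65 of 80 members were above 0, where 57.8% of all genes were. The median was 0.20 for the members and 0.12 for all genes. For other genes of the members' length it was 0.32, so the ribosomal protein genes lay above all genes and below those of like length. Only Rps4l passed the size rule (1.15), where 9.92% of all genes did, and with the trend over transcript length removed it did not (0.83). Rpl3l (0.95), Rpl27 (0.72), Rpl32 (0.59) and Rpl23 (0.57) followed. Rpl27 went from 527 to 870 FPKM, Rpl32 from 969 to 1458 FPKM and Rpl23 from 435 to 648 FPKM.

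The 15 members below 0 included Rpl9 (-0.55), Rpl31 (-0.32), Rplp0 (-0.27), Rps6 (-0.18) and Rps27 (-0.17). Rpl9 went from 581 to 396 FPKM and Rpl31 from 693 to 554 FPKM. Rplp0, the core of the stalk and a common reference gene in PCR, went from 359 to 299 FPKM. Rps6, the substrate of the S6 kinases, went from 794 to 700 FPKM.

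Doxorubicin in Smad3 KO hearts left the members divided, to an extent that depended on scaling. In Smad3 KO Dox versus Smad3 KO saline, 59 of 80 were above 0, where 54.8% of all genes were. That count was 72 with TPM and 66 when the sum left out mitochondrially encoded and globin genes. It was 47 with median-ratio or upper-quartile scaling. Without rescaling, the medians were 0.12 for the members, 0.05 for all genes and 0.21 for other genes of the members' length. Only Rpl13a passed the size rule (1.30), where 6.86% of all genes did. Rpl38 (0.81), Rpl3l (0.74), Rps4l (0.74) and Rplp2 (0.66) followed. Rpl38, which in mouse embryos is needed for the translation of Hox mRNAs, went from 548 to 961 FPKM. Rplp2, a stalk protein, went from 567 to 897 FPKM. Their transcripts, of 367.5 and 449 bases, are short beside the fragment lengths fitted to Smad3 KO saline (300 bases) and Smad3 KO Dox (260 bases). The levels of both are therefore uncertain. The lowest were Rpl9 (-0.48), Rpl31 (-0.36), Rps7 (-0.35), Rps12 (-0.31) and Rplp0 (-0.30).

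**Figure D2:**
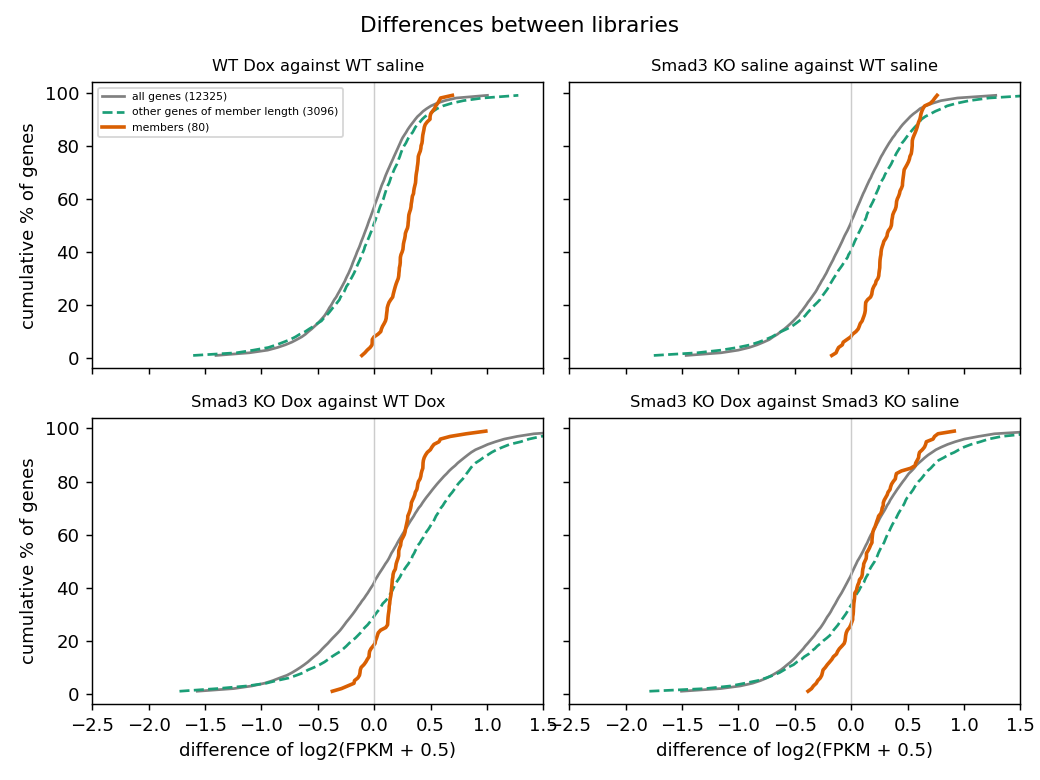
Cumulative share of genes (%) by difference of log2(FPKM + 0.5) in 4 comparisons, for 80 members (orange), all 12325 genes (grey) and 3096 other genes with transcripts of the members' length (green, dashed). The members lie to the right of both other curves over most of their range in the upper panels (medians 0.30 and 0.36), and in the lower panels their medians (0.20 and 0.12) lie between those of all genes and of genes of like length.

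Rpl13a stood apart from the other members. Rpl13a (ENSMUSG00000074129; GRCm38, chr7:45125558-45128761, minus strand) encodes a large subunit protein that in human myeloid cells also leaves the ribosome to silence inflammatory mRNAs, and is often used as a reference gene. It had 876 FPKM (WT saline), 1813 FPKM (WT Dox), 997 FPKM (Smad3 KO saline) and 2457 FPKM (Smad3 KO Dox). Both Dox libraries were above both saline libraries. The ratio of Dox to saline was 2.07 in WT and 2.47 in Smad3 KO, and the ratio of Smad3 KO to WT was 1.14 with saline and 1.36 with Dox. It was the only member at 1 or above in both Dox comparisons, which share no library, where 0.284% of all genes (35) were. In WT it fell short with TPM (0.86) and with the sum taken without mitochondrially encoded and globin genes (0.97).

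Other genes at or like its locus were low. Its 4 snoRNA genes (Snord32a, Snord33, Snord34 and Snord35a) stood at 0.05 FPKM, the lowest value of the table, in all libraries, as did all 55 snoRNA genes inside members, so they hold no measured difference. The overlapping gene Flt3l, a cytokine, had 5.11, 5.28, 4.62 and 5.996 FPKM. Its 2 near-identical copies elsewhere summed to at most 1.02 FPKM in any library. The 250 bases before its RefSeq start (chr7:45128746-45128995, minus strand) are shown because it alone of the members passed the size rule in both Dox comparisons. Capitals mark the E-box CACGTG and, on the reverse strand, CCATNTT, the only matches in this stretch to the motifs spelled out above.
Rpl13a upstream: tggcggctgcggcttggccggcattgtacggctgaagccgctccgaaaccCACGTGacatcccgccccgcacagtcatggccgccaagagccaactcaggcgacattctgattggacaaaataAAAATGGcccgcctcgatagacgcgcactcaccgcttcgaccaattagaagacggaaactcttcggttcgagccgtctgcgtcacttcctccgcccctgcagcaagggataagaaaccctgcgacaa

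**Figure D3:**
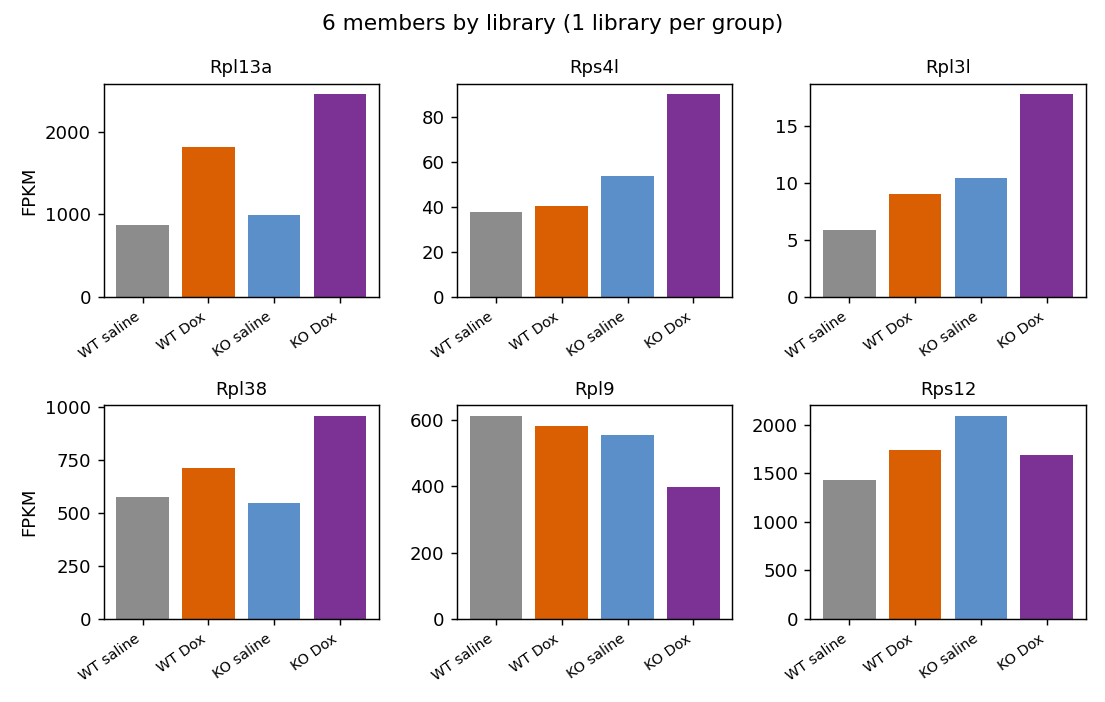
FPKM of 6 members in the 4 libraries, 1 bar per library with each axis from 0. Rpl13a was at 1813 and 2457 FPKM in the Dox libraries against 876 and 997 FPKM with saline, Rpl9 was lowest in Smad3 KO Dox (396 FPKM), and Rps12 was highest in Smad3 KO saline (2094 FPKM).

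The 2 Dox comparisons, which have no library in common, were set against each other over the 80 members. Pearson's r was 0.51 and Spearman's rho 0.41, and r was 0.39 without Rpl13a. The members share libraries and short transcripts, so these are descriptions over genes. In 56 members both differences were above 0, against 27.9% of all genes. After Rpl13a, the members with the highest value in the smaller of their 2 differences were Rpl3l (0.58 in WT and 0.74 in Smad3 KO), Rps23 (0.57 and 0.66), Rps28 (0.49 and 0.57), Rpl37 (0.44 and 0.64) and Rpl27 (0.41 and 0.60). Another 17 members were above 0 in WT and below 0 in Smad3 KO, a pattern that was not counted over all genes. Of all genes, 42.8% were above 0 in WT, with or without the same sign in Smad3 KO.

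The doxorubicin difference was smaller in Smad3 KO than in WT for most members. The Smad3 KO difference less the WT difference had a median of -0.17 over the members and 0.12 over all genes. It was below 0 for 58 of 80 members and for 5007 of all 12325 genes. This subtraction was not tested, and its sign depended on scaling. It was 0.26 with TPM and 0.02 with the sum taken without mitochondrially encoded and globin genes. The lowest values were those of Rps12 (-0.60), Rps7 (-0.58), Rpl8 (-0.53), Rplp0 (-0.52) and Rps4x (-0.51). Rps12, whose loss in Drosophila alters cell competition, had 1428, 1741, 2094 and 1686 FPKM in the standard order. Smad3 KO saline was its highest library and WT saline its lowest. The highest values were those of Rps4l (0.64), Rpl38 (0.51) and Rps29 (0.49).

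**Figure D4:**
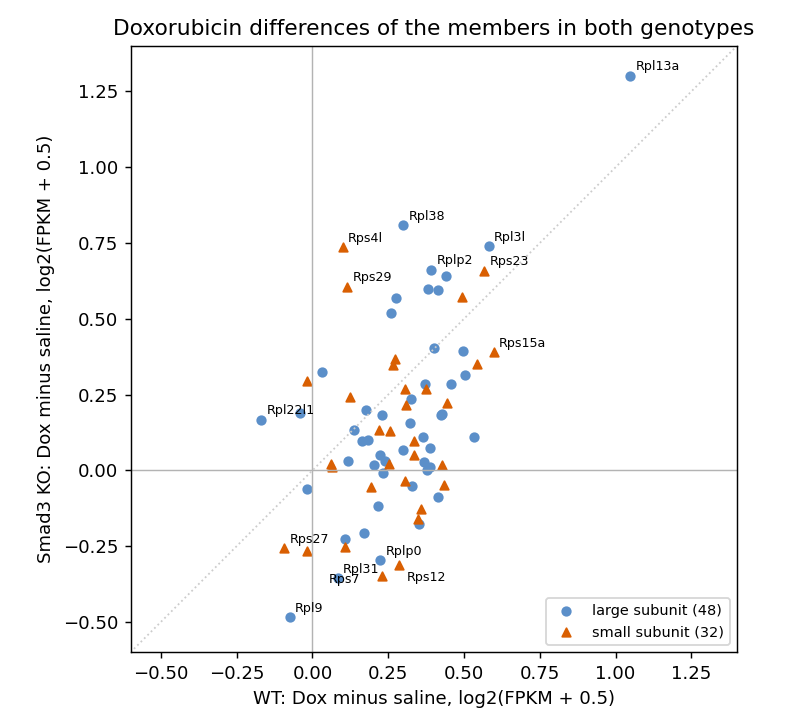
Doxorubicin difference of each member in WT (horizontal) and Smad3 KO (vertical) hearts, on log2(FPKM + 0.5), with large subunit members as circles and small subunit members as triangles. The dotted line marks equal differences. Rpl13a (1.05 and 1.30) lies alone at the top right, 56 members lie above 0 on both axes and 58 lie below the dotted line.

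Rpl9 and Rps27 were the members that went against the rest. Rpl9 (ENSMUSG00000047215; chr5:65388364-65391444, minus strand), a large subunit protein, had 613, 581, 555 and 396 FPKM in the standard order. WT saline was its highest library and Smad3 KO Dox its lowest, the reverse of the order of 51 members. All 4 of its differences were below 0, and none passed the size rule. Its 8 near-identical copies summed to between 5.03 and 10.2 FPKM. Rps27 was the only other member highest in WT saline, where 32.7% of all genes were highest, at 2133, 1999, 2118 and 1771 FPKM in the same order. Smad3 KO Dox was its lowest library too, and all 4 of its differences were below 0, from -0.26 to -0.01.

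The 3 stalk proteins did not move as 1 unit. Rplp1 had 2164, 2331, 2579 and 2203 FPKM. Rplp2 had 479, 628, 567 and 897 FPKM and Rplp0 had 308, 359, 367 and 299 FPKM. Smad3 KO Dox was thus the highest library for Rplp2 and the lowest for Rplp0. Near-identical copies held much of the Rplp0 signal, 32.7%, 32.5%, 29.3% and 33.7% of the sum of gene and copies, and so its level is uncertain.

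Rpl5 and Rpl11, which carry the 5S RNA and bind Mdm2, did not pass the size rule. Rpl5 had 326, 366, 426 and 369 FPKM and Rpl11 had 531, 611, 607 and 615 FPKM in the standard order. Both were lowest in WT saline without rescaling of the libraries. Mdm2, their partner, went the other way, with 23.1, 12.0, 10.8 and 12.7 FPKM, and so did its relative Mdm4, with 18.97, 9.19, 8.09 and 8.88 FPKM. Mdm2 passed the size rule in Smad3 KO saline versus WT saline (-1.06), and Mdm4 passed in that comparison (-1.18) and in WT Dox versus WT saline (-1.01). Of 14 genes of p53 and ribosomal stress above the filter, no other gene passed in any of the 4 comparisons. Cdkn1a, the main arrest gene under p53, had 469, 418, 509 and 377 FPKM.

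Other members of note to a reader of this family were likewise within the size rule. Rps6 had 736, 794, 835 and 700 FPKM in the same order, with Smad3 KO Dox the lowest. Rps19, the gene most often mutated in human Diamond-Blackfan anemia, had 475, 552, 498 and 546 FPKM and was a little higher in both Dox libraries. Rpsa, also known as a laminin receptor, had 269, 332, 390 and 381 FPKM. Rps18, another reference gene in PCR, had 650, 786, 795 and 1026 FPKM. Without rescaling of the libraries, each was lowest in WT saline except Rps6.

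Paralogs were low next to their partners. The share of the pair was highest in Smad3 KO Dox for Rpl3l, Rps27l, Rpl7l1 and Rps4l, and for Rpl39l, which was below the filter. It was highest in WT saline for Rpl22l1 and Rpl10l. Smad3 KO Dox was the library with the highest level for 41.5% of all genes, and shares of pairs have no such count. Rpl3l, a paralog of Rpl3 made in heart and skeletal muscle, had 5.87, 9.03, 10.5 and 17.9 FPKM, against 271, 385, 409.5 and 509.9 FPKM of Rpl3. It made up 2.12%, 2.29%, 2.50% and 3.38% of the pair. The sum of the cardiomyocyte markers had the same order of libraries (608, 737, 876 and 922 FPKM), as did 4 of the 8 markers but not Mb, Myh6, Ryr2 and Ttn. Mb was lowest in Smad3 KO Dox, at 179, 187, 181 and 120 FPKM. The part of cardiomyocyte RNA in the level of Rpl3l was not tested. The coding sequences of Rpl3 and Rpl3l share 73.2% of aligned positions. The first 150 bases are shown because they tell the pair apart, with capitals where the 2 genes differ.
Rpl3 (chr15:80077791-80091868, minus strand): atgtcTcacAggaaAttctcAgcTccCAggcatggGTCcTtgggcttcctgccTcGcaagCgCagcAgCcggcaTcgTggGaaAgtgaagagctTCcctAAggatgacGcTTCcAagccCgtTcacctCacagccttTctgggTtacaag
Rpl3l (chr17:24727820-24736143, plus strand): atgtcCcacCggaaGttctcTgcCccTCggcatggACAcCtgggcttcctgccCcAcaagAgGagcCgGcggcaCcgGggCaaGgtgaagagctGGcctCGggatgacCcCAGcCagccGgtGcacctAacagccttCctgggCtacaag
The positions are those of the genes in GRCm38.

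Rps4l, the only member annotated as a transcribed processed pseudogene, had 37.7, 40.4, 54.1 and 90.5 FPKM. Both Smad3 KO libraries were above both WT libraries. It differs from X-linked Rps4x at 161 of 789 aligned positions, and Rps4x had 673, 857, 929 and 831 FPKM. Rps4l was 5.31%, 4.51%, 5.50% and 9.82% of the pair. Near-identical copies of Rps4l were not searched for, because it has no annotated coding region. The first 150 bases again show where the genes differ, in capitals.
Rps4x (chrX:102184941-102189394, minus strand): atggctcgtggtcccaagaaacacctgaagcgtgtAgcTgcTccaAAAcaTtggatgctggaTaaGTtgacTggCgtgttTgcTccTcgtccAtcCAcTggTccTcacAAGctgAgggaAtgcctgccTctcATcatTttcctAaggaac
Rps4l (chr6:148354656-148355598, plus strand): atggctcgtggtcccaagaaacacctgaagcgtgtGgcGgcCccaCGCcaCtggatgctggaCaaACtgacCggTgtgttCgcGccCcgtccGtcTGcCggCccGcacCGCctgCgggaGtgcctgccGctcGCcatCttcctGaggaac

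Rps27l, which p53 induces in human cells, had 82.3, 81.3, 78.4 and 96.3 FPKM, or 3.71%, 3.91%, 3.57% and 5.16% of its pair with Rps27. The pair is shown whole because 60 of 252 positions differ, in capitals, while the genes stand more than 10-fold apart in level.
Rps27 (chr3:90212522-90213651, minus strand): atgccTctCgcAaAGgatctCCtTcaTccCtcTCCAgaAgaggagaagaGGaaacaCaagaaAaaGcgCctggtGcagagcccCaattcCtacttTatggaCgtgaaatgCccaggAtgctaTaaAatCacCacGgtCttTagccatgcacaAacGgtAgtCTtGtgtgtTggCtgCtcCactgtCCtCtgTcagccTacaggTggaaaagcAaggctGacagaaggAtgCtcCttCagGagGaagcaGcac
Rps27l (chr9:66946086-66949516, plus strand): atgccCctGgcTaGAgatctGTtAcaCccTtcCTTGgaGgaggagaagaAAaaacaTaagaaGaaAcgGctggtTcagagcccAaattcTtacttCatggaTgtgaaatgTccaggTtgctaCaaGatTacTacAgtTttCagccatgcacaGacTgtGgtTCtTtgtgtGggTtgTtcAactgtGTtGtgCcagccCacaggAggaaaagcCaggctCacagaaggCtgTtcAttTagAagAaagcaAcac
Rpl22l1, which Rpl22 represses in mice, had 77.6, 69.0, 71.4 and 80.2 FPKM against 338, 371, 406 and 445 FPKM of Rpl22, and its share of the pair was highest in WT saline (18.7%) and between 15.0% and 15.7% in the other libraries. Rpl7l1 had 15.8, 19.2, 17.2 and 25.8 FPKM, against 533, 688, 737 and 751 FPKM of Rpl7. Rpl39l and Rpl10l, which act mainly in testis, were at most 0.831 and 0.0612 FPKM, at or near the lowest value of the table, while Rpl39 had 141, 169, 155 and 222 FPKM and X-linked Rpl10 had 915, 1034, 1091 and 1253 FPKM.

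The members are short, which bears on how their FPKM were made. Their transcripts had a median length of 704 bases, against 1987.5 bases for the 12276 genes of known length above the filter. Rpl38 was the shortest, at 367.5 bases, and Rpl41 had the shortest coding region, 75 bases from ATG to the last codon before the stop, shown because it is the smallest unit measured here.
Rpl41 (chr10:128548114-128549305, minus strand): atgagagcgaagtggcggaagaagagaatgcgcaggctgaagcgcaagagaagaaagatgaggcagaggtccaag
Rpl41 had 1002, 1023, 917 and 1149 FPKM in the standard order. A fragment length fitted to the low values was 270, 260, 300 and 260 bases in the same order, close to the whole length of the shortest members. Over all genes, shorter transcripts were higher in the Smad3 KO Dox library, with Spearman's rho between length and difference of -0.34 versus WT Dox and -0.29 versus Smad3 KO saline over 12276 genes. Among the 80 members the same values were -0.15 and -0.22. With the trend over length removed, the member median was -0.06 in both of these comparisons, in place of 0.20 and 0.12, and it stayed at 0.29 in WT Dox versus WT saline and 0.24 in Smad3 KO saline versus WT saline.

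Near-identical copies elsewhere in the genome were common and mostly low, but for some members they held much of the signal. At 95% identity over at least 90% of the coding sequence, 437 annotated copies matched 73 of the 81 members with an annotated coding region. Of these copies 167 stood at 0.05 FPKM in all libraries, and 84 had a mean of at least 1 FPKM. Together the copies held 5.46%, 4.67%, 5.19% and 5.76% of the summed FPKM of members and copies. For 13 members the copies held over 10% in at least 1 library, so that their own values are uncertain: Rpl10l, Rpl12, Rpl15, Rpl21, Rpl29, Rpl3, Rpl30, Rpl34, Rplp0, Rps13, Rps2, Rps29 and Rps7. For Rpl10l, gene and copy both lay at or near 0.05 FPKM, the lowest value of the table, so its share measures no signal. Copies held 68.3% to 72.9% for Rpl29, 64.0% to 67.2% for Rpl30 and 42.5% to 44.1% for Rpl34, but 8.64% to 12.0% for Rps7. Rps29, which encodes a zinc-binding protein of the small subunit, had 727, 787, 597 and 909 FPKM by its own row. Among its 5 copies, Gm10059 had 151 FPKM in WT saline and Gm7618 had 712 FPKM in Smad3 KO Dox, and each was at 0.05 FPKM in the other libraries.

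A total of 28 members held 55 annotated snoRNA genes, all at 0.05 FPKM in every library. Host members had medians of 0.31 in WT Dox and 0.36 in Smad3 KO saline, each versus WT saline, and in Smad3 KO Dox 0.23 versus WT Dox and 0.19 versus Smad3 KO saline. The 52 other members had medians of 0.27, 0.34, 0.19 and 0.10 in the same order, close to those of the hosts. The members lay on 19 chromosomes.

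The 6 ribosomal protein genes outside the name rule had medians of 0.33 in WT Dox and 0.58 in Smad3 KO saline, each versus WT saline, and in Smad3 KO Dox 0.35 versus WT Dox and 0.11 versus Smad3 KO saline. Fau, a fusion of a ubiquitin-like protein with a small subunit protein, had 684, 950, 966 and 1181 FPKM in the standard order. Rack1, listed as Gnb2l1, a scaffold on the small subunit, had 322, 389, 469 and 538 FPKM. Both were lowest in WT saline and highest in Smad3 KO Dox. Rps3a1 had 183, 248, 230 and 196 FPKM and was highest in WT Dox. Only Rps27rt, a retrogene of Rps27, passed the size rule, and it was lower in both comparisons of Smad3 KO Dox. It had 2.62, 2.14, 5.54 and 0.05 FPKM, the last being the lowest value of the table.

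Other transcripts known to carry an oligopyrimidine tract had medians of 0.30 in WT Dox and 0.44 in Smad3 KO saline, each versus WT saline, and in Smad3 KO Dox 0.26 versus WT Dox and 0.19 versus Smad3 KO saline. These lay close to the 0.30, 0.36, 0.20 and 0.12 of the ribosomal protein genes. Of the 28 genes in this list, which includes Fau and several translation factors, Eef1a1, the elongation factor, had 3288, 4474, 4974 and 4107 FPKM, and Tpt1 had 2188, 2806, 3249 and 3943 FPKM. Both were lowest in WT saline. The snoRNA host transcripts Gas5, Snhg12 and Snhg8, which carry the tract but encode no protein, went the other way. Gas5 had 36.0, 6.39, 7.60 and 11.9 FPKM and Snhg12 had 29.0, 11.2, 6.76 and 13.6 FPKM, each highest in WT saline. Gas5 (-2.404) and Snhg12 (-1.33) passed the size rule in WT Dox versus WT saline, and Gas5 (-2.17), Snhg12 (-2.02) and Snhg8 (-1.21) in Smad3 KO saline versus WT saline, the same library serving as control. Eef1d, a subunit of the exchange factor for Eef1a1, was the only list member to pass upward (1.15 in Smad3 KO saline versus WT saline).

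Translation factors moved less evenly. For 47 of them the medians were 0.15, 0.22, 0.27 and 0.16 in the order just given. Eef2, which moves the ribosome along the mRNA, had 849, 1318, 1439 and 1222 FPKM. Beside Eef1d, Eif4g3, a scaffold of cap binding, was past the rule in Smad3 KO Dox versus WT Dox (1.03) and Eif2b2, of the exchange factor for eIF2, in Smad3 KO Dox versus Smad3 KO saline (1.05). None fell by the size rule in any of the 4 comparisons.

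The genes that build ribosomes followed another order than the genes for its proteins. The 84 ribosome assembly genes had medians of -0.16 in WT Dox versus WT saline and -0.03 in Smad3 KO saline versus WT saline, where the ribosomal proteins had 0.30 and 0.36. In Smad3 KO Dox they had medians of 0.41 versus WT Dox and 0.32 versus Smad3 KO saline, where the ribosomal proteins had 0.20 and 0.12. Nop56, of the snoRNA methylation complex, fell in WT Dox versus WT saline (48.2 to 20.9 FPKM, -1.19), as did Mdn1, the ATPase that remodels large subunit precursors (3.38 to 0.982 FPKM, -1.39). Mdn1 was also the 1 assembly gene that fell in Smad3 KO saline versus WT saline (to 1.16 FPKM, -1.23), a comparison with the same control library. These falls were 2 of 84 genes in WT Dox, where 332 of all 12325 genes fell by the size rule. In Smad3 KO saline the fall was 1 of 84, where 373 of all 12325 did. Dkc1, the pseudouridine synthase, rose in Smad3 KO Dox versus WT Dox (12.6 to 31.8 FPKM, 1.30) and versus Smad3 KO saline (from 11.6 FPKM, by 1.409). Mrto4 (1.44), Wdr75 (1.08) and Wdr12 (1.01), further assembly factors, also rose versus WT Dox, and Polr1c (1.20), Npm3 (1.02) and Grwd1 (1.01) versus Smad3 KO saline. The genes that rose were 4 of 84 in each comparison, where 6.17% and 4.02% of all genes rose.

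Mitochondrial ribosomal proteins, which serve the separate ribosome of that organelle, had larger differences in Smad3 KO Dox than the cytosolic ones, at far lower levels. Of the 77 above the filter, all 77 were above 0 versus WT Dox, where 57.8% of all genes were, with a median of 0.74, and 12 rose by the size rule, where 6.17% of all genes did. Against Smad3 KO saline 76 were above 0, where 54.8% of all genes were, with a median of 0.52, and 7 rose, where 4.02% did. Over all genes, shorter transcripts were higher in Smad3 KO Dox. The 3096 other genes of the cytosolic members' length had medians of 0.32 versus WT Dox and 0.21 versus Smad3 KO saline. The part of transcript length in the differences of the mitochondrial list was not tested. Only Mrps23 fell by the size rule, in Smad3 KO saline versus WT saline (-1.11). The medians of the list were 0.042 in WT Dox versus WT saline and 0.21 in Smad3 KO saline versus WT saline. Mrpl1 had the largest difference of the list in both comparisons of Smad3 KO Dox, at 2.17, 1.82, 1.78 and 6.06 FPKM in the standard order. The mitochondrially encoded genes, by contrast, took the smallest share of FPKM in that library (8.95%).

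Genes of growth control, among them mTOR and its partners, lay near 0, with medians between -0.08 and 0.03 over 29 genes. Mtor had 8.24, 6.93, 7.89 and 5.86 FPKM and Larp1 had 16.5, 15.5, 15.6 and 16.6 FPKM in the standard order. Myc, an activator of ribosomal genes, had 23.8, 13.1, 15.5 and 11.1 FPKM and was highest in WT saline. Without rescaling, that library was the lowest for most ribosomal protein genes. Only Rps6kb2, an S6 kinase, passed the size rule, falling in WT Dox versus WT saline (5.89 to 2.26 FPKM, -1.21).

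**Figure D5:**
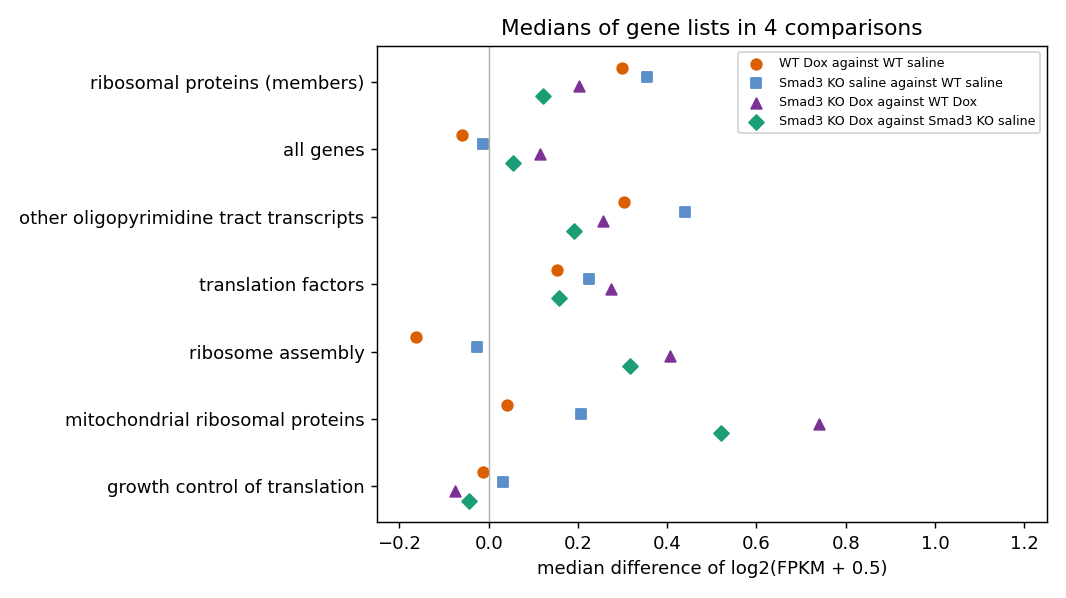
Median difference of log2(FPKM + 0.5) for the 80 ribosomal protein genes, all 12325 genes and 5 related gene lists in 4 comparisons, 1 symbol per comparison. Ribosomal proteins and other oligopyrimidine tract transcripts lay close together, while ribosome assembly genes and mitochondrial ribosomal proteins had their highest medians in Smad3 KO Dox (0.41 and 0.74 versus WT Dox).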

How the data were processed

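Values are FPKM per gene in 4 libraries, as the authors deposited them, with no counts. For their making the submitters list CASAVA, STAR and GRCm38.p4, but the methods section gives TopHat, Bowtie and Cufflinks and a build of another species (human), so the aligner is uncertain. The sources used here give neither strand use nor annotation release, so overlapping and antisense genes cannot be told apart. The table had 45952 lines for 45882 IDs (lines of 1 ID were summed), and 1 value below 0.05 was set to 0.05. Depth was estimated from steps of low values, of which 70.9% to 76.1% lay within 0.05 of a whole fragment (275 to 313 genes per library).

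Differences are of log2(FPKM + 0.5), which understates changes of low genes. The filter was a mean of 1 FPKM over the libraries and the size rule a difference of 1. With 1 library per group no test was made. Groups follow sample titles. Named genes were those that met the size rule, then the 5 members at either end of each comparison, the 10 highest and 10 lowest by mean, paralogs, the stalk proteins and a few of known role, and of each related list up to 4 past the rule. Other genes named with values, and members ranked over 2 comparisons, were chosen after their values were seen. Some genes that this rule names are not reported here. Members and lists were chosen with earlier results of these data known.

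Positions, lengths and coding sequences came from GENCODE M21 (GRCm38), starts from RefSeq (GRCm38.p6), and copies from BLAST 2.17.0. Protein sequences were not used, and identity is of coding sequence. Python 3.11.15 with pandas 2.3.3, numpy 2.4.6, scipy 1.17.1 and Biopython 1.88 was used. The size rule and the removal of the length trend were tested on simulated data. Alternatives were pseudocounts of 0.1 and 1, replacing only the lowest values, no filter or a mean of 5 FPKM, 4 scalings, removal of a running median over length (501 genes) and 3 added after seeing the data.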

Additional observations from a re-analysis of the deposited data

Results flagged for a closer look

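For 3 members the Dox and saline libraries differed in opposite directions in the genotypes, by at least 0.2 each way on log2(FPKM + 0.5). Rps12 was at 0.29 in WT and -0.31 in Smad3 KO, a gap of -0.60. Rps7 was at 0.23 and -0.35, a gap of -0.58, with 373, 438, 511.5 and 401.5 FPKM in the standard order. Rplp0 was at 0.22 and -0.30, a gap of -0.52. With TPM none of the 3 reached 0.2 each way (Rps12 0.10 and -0.069, Rps7 0.046 and -0.11, Rplp0 0.038 and -0.053), and with the sum taken without mitochondrially encoded and globin genes only Rps12 did (0.205 and -0.202). With fragments recovered only Rps7 did. With 1 library per group these differences between genotypes were not tested, and genes past the same cut were not counted over all genes. For Rps7 and Rplp0 near-identical copies held over 10% of the signal in at least 1 library.

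Among rows outside the members, Gm7618, a processed copy of Rps29 with 98.2% identity, stood at 711.9 FPKM in Smad3 KO Dox and at 0.05 FPKM in the other 3 libraries. With near-identical copies added, Rps29 was past the size rule versus WT Dox (1.04) and versus Smad3 KO saline (1.44).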

How the results depend on the processing

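No paired analysis was possible because each group holds 1 library, and for the same reason no replicate could be left out. Scaling moved the member medians. With a sum of 1000000 per library (TPM) they were 0.11 in WT Dox and -0.032 in Smad3 KO saline, each versus WT saline, and 0.36 in Smad3 KO Dox versus Smad3 KO saline. The counts past the size rule were then 0 in WT Dox versus WT saline and 2 in each comparison of Smad3 KO Dox. TPM moved the median of all genes too, to -0.24 for WT Dox and -0.38 for Smad3 KO saline, both versus WT saline, and for Smad3 KO Dox to 0.16 versus WT Dox and 0.29 versus Smad3 KO saline. Relative to it the members stood at 0.35, 0.35, 0.084 and 0.077, against 0.36, 0.37, 0.086 and 0.066 as reported. With the sum taken without mitochondrially encoded and globin genes, medians were 0.14 in Smad3 KO saline versus WT saline and 0.23 in Smad3 KO Dox versus Smad3 KO saline, and 0 members passed in WT Dox versus WT saline, where Rpl13a stood at 0.97 (0.86 with TPM). Median-ratio and upper-quartile scaling gave 0.093 and 0.084 in Smad3 KO Dox versus WT Dox. With the length trend removed, medians were -0.057 and -0.056 in Smad3 KO Dox versus WT Dox and versus Smad3 KO saline and 0.24 in Smad3 KO saline versus WT saline, and 0 members passed in Smad3 KO Dox versus WT Dox (Rps4l 0.83). The median gap between the Dox differences, -0.17 as reported, was 0.26 (TPM), 0.024 (sum without mitochondrially encoded and globin genes), -0.29 (median-ratio), -0.28 (upper-quartile) and -0.30 (length trend removed). In the standard order, member shares were 10.1%, 11.7%, 11.2% and 13.3% without mitochondrially encoded and globin genes in the total, 9.38%, 10.1%, 9.24% and 12.0% with ribosomal protein genes outside the name rule added, and 9.24%, 9.88%, 9.05% and 11.7% with rows named -ps. Smad3 differed by -0.29 between genotypes by the tag, and by -1.06 by title. The causes of these shifts were not tested.

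Of the alternatives added after seeing the data, turning FPKM back into fragments (73 members with at least 150 bases beyond the fragment length) gave a median of 0.24 in Smad3 KO Dox versus Smad3 KO saline. Rpl36, Rpl38, Rplp2, Rps21, Rps27, Rps28 and Rps29 were too short for this alternative. Adding near-identical copies gave 2 members past the rule in each comparison of Smad3 KO Dox, and leaving out the paralogs gave 0 in Smad3 KO Dox versus WT Dox. Other pseudocounts and filters moved no member count past 1.5 times and no member median by over 0.1. Of the values for single named members, 3 ended a call (those of Rpl13a and Rps4l above) and 4 made one, Rpl38 (1.05) and Rpl3l (1.003) with TPM and both of Rps29 with copies. Rpl10l and Rpl39l lie near the lowest value of the table.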
